A study of Homo sapiens with 15 samples.

Results

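The response of 2 established human cell lines to MYCi975 was compared gene by gene, as the change in PC3 minus the change in P493-6. PC3 is a prostate cancer line, and its cells were given 8 µM MYCi975 or the solvent DMSO. P493-6 is a B cell line in which an introduced MYC gene can be shut off with tetracycline, and the labels call it a Burkitt lymphoma line that overexpresses MYC. Its cells were given 6 µM MYCi975 or DMSO, and treatment lasted 24 h in both lines. Each of the 4 groups held 3 libraries, so 12 of the 15 samples of the series entered, and the tetracycline samples were not used. Tables of the PC3 and the P493-6 libraries were joined on the Ensembl gene identifier, which left 11240 genes of 13751 and 12998. Because each line had its own dose, line and dose cannot be told apart in any difference below. Each line is a single cell line standing for its tissue, and the labels do not tell if the 3 libraries of a group stem from separate cultures. If they do not, the p-values reflect technical spread only.

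MYCi975 is a small molecule made to interfere with MYC, a transcription factor that binds DNA together with MAX, mostly at the sequence CACGTG called the E-box. MYC is known for driving genes of ribosome assembly, nucleotide synthesis, the cell cycle and glucose use. Cells under stress run other programs, among them the integrated stress response led by ATF4, the unfolded protein response to misfolded proteins in the ER (endoplasmic reticulum), the antioxidant response led by NRF2 and the response to low oxygen led by HIF1.

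Expression is given in CPM (counts per 1e6 counted reads of the library), and a change is the difference in mean log2(CPM + 1) between MYCi975 and DMSO in 1 line. The interaction is the change in PC3 minus the change in P493-6, and is above 0 where the change in PC3 was the higher of both and below 0 where it was the lower. Intervals are 95% intervals, and adjusted p-values are Benjamini-Hochberg values from limma over all genes of a fit, with calls made below 0.05. The 12 libraries held 9774101 to 15926008 reads. The lines carried the markers their names call for. PC3 libraries listed 11 of 11 epithelial markers, with KRT8 at 349 to 398 CPM, and 0 of 12 B cell markers. P493-6 libraries listed 12 of 12 B cell markers, with MS4A1 at 873 to 967 CPM, and 2 of 11 epithelial markers, KRT7 and EPCAM, which summed to 11.7 to 14.7 CPM. In bulk libraries, fewer cells of a kind and less RNA per cell cannot be told apart, and every change is relative to the other genes of the library.

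The direct comparison of the lines asked which genes responded to MYCi975 by a different amount in PC3 than in P493-6. Most called members of the integrated stress response, unfolded protein response, amino acid supply, antioxidant, lysosomal and cholesterol synthesis lists had the higher change in PC3. Most called members of the histone, mitosis, DNA replication, heat shock chaperone, glycolysis and hypoxia lists had the lower one. The interaction was called for 4075 of 11240 genes (36.3%), higher in PC3 for 2029 genes (18.1%) and lower in PC3 for 2046 genes (18.2%). It reached at least 1 on the log2 scale for 161 genes on the higher and 87 on the lower side, and the median size among called genes was 0.417. The median interaction of all genes was 0.00903, a value tied to the scaling of each library to its own total. With TMM scaling 1824 genes were called higher and 2353 lower.

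Most genes that changed in both lines changed the same way. Of the 11240 genes, 2210 (19.7%) changed in both lines in the same direction, 698 as rises and 1512 as falls. Among these the median size of the change was 0.406 in PC3 and 0.265 in P493-6, and the PC3 change was the larger for 1608 genes. The difference in size was called for 947 of them, and PC3 had the larger change in 876 and P493-6 in 71. Changes in opposite directions were rarer: 338 genes (3.01%) changed in both lines but against each other, 207 of them rising in PC3 and falling in P493-6. That count came to 135 with limma without its trend and robust options, where 2055 genes were called in P493-6, and to 177 with DESeq2, where 2447 were. Across genes the changes in both lines had a Pearson r of 0.409, as a description, since genes are not independent replicates. Over all genes of each line, 8137 of 13751 genes (59.2%) were called in PC3, with 29% rising and 30.1% falling. In P493-6 3713 of 12998 genes (28.6%) were called, with 10.6% rising and 18% falling. With TMM scaling between libraries the P493-6 split was 2008 genes up and 1486 down, against 1375 up and 2338 down without it, so the balance of small rises and falls in P493-6 depends on the scaling.

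**Figure D1:**
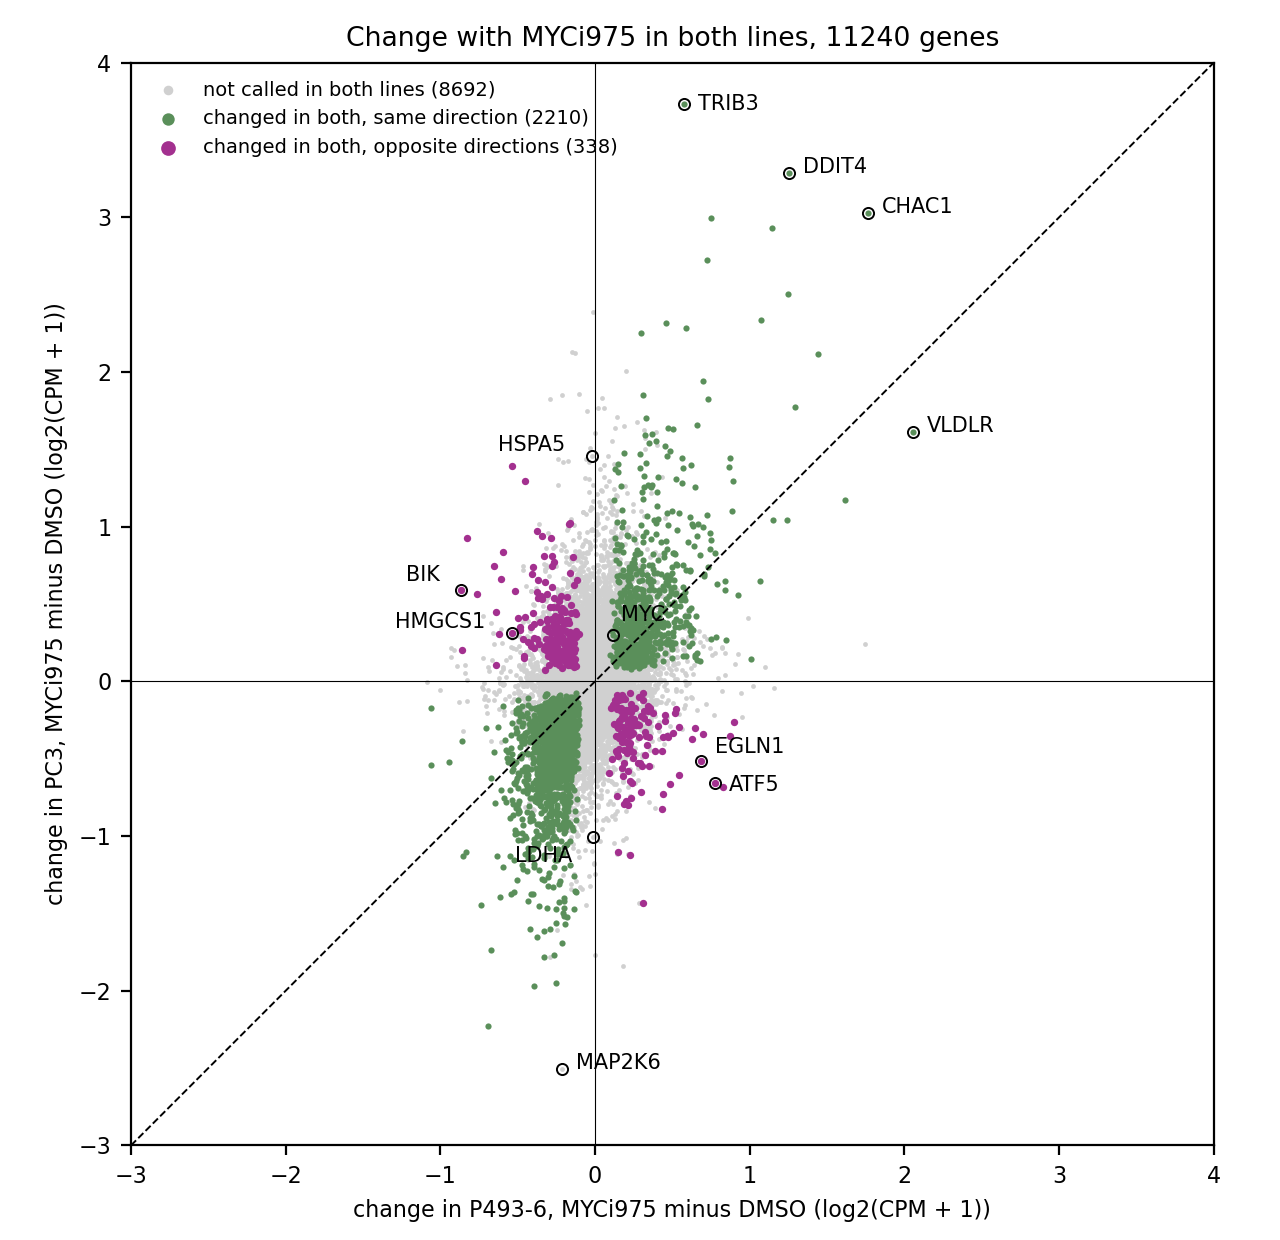
Change with MYCi975 in PC3 (vertical axis) and in P493-6 (horizontal axis) on the log2(CPM + 1) scale, 1 point per gene for 11240 genes, with the dashed line marking equal changes. Green points changed in both lines the same way (2210 genes), purple points in opposite directions (338 genes), and the cloud is stretched along the PC3 axis.

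**Figure D2:**
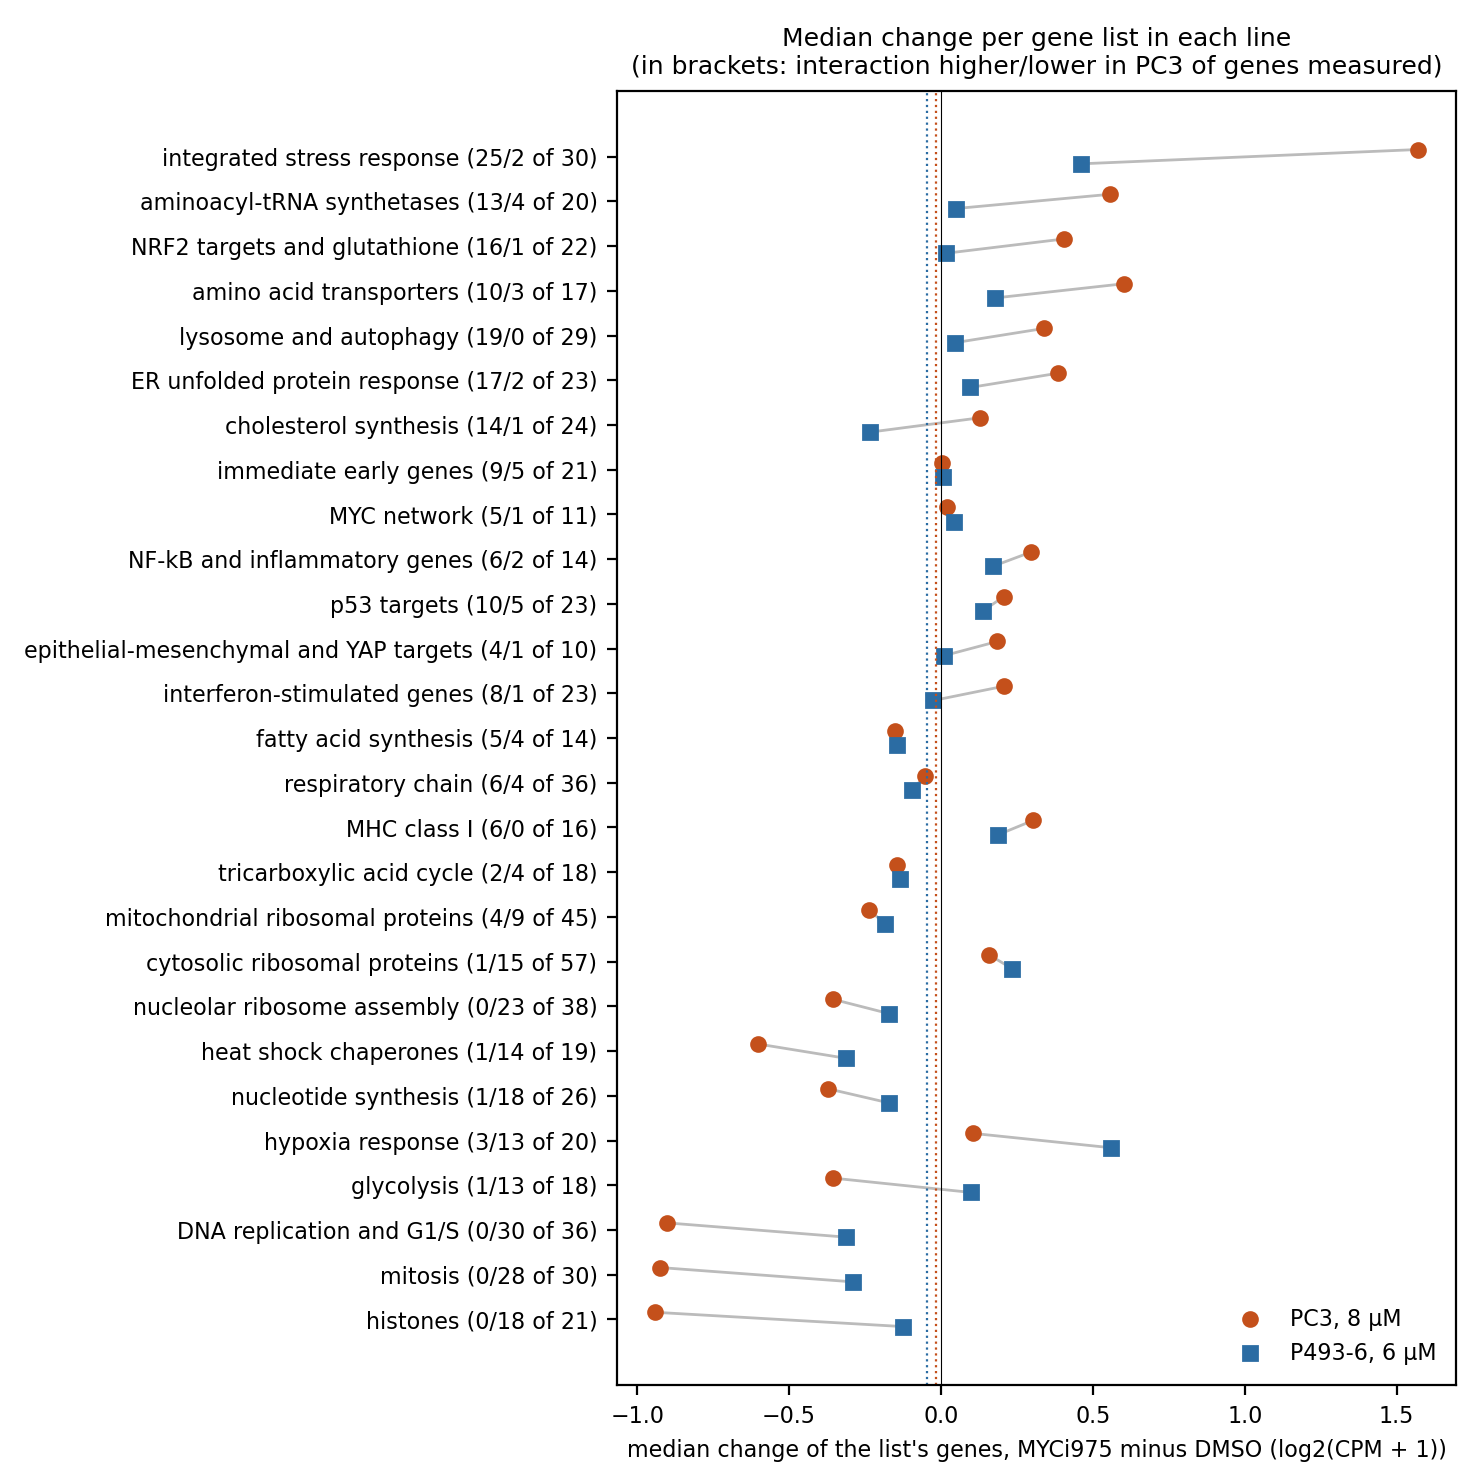
Median change of each gene list in PC3 (circles) and P493-6 (squares), with the number of members whose interaction was called higher and lower in PC3. Dotted lines mark the median of all joined genes, −0.02 in PC3 and −0.05 in P493-6. Lists are ordered by median interaction, from the integrated stress response at the top to histones at the bottom. Near the bottom, the hypoxia list had medians above 0 in both lines, 0.106 in PC3 and 0.559 in P493-6. The glycolysis list had −0.355 in PC3 and 0.099 in P493-6.

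The integrated stress response showed the widest gap between the lines. In this pathway stress kinases slow protein synthesis while the transcription factor ATF4 is made and turns on genes for amino acid supply. Of 30 members measured in both lines, 28 rose in PC3 and 27 rose in P493-6, and the interaction was called higher in PC3 for 25 and lower for 2. The median interaction was 1.00, with median changes of 1.57 in PC3 and 0.46 in P493-6. Both lines thus moved this list up, and PC3 moved it further.

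TRIB3 was at 610.4, 591 and 629.6 CPM in PC3 with MYCi975, against 44.9, 47.0 and 43.3 CPM in PC3 with DMSO. In P493-6 it was at 56.2, 64.5 and 58.0 CPM with MYCi975, against 40.8, 41.1 and 36.9 CPM with DMSO. TRIB3 encodes a pseudokinase that feeds back on ATF4 signalling, and its interaction of 3.16 (3.004 to 3.31, adjusted p = 2.67e-29) was the largest of all 11240 genes. In PC3, ASNS stood at 168, 152 and 158 CPM with MYCi975 and at 23.0, 23.5 and 23.4 CPM with DMSO. P493-6 had 67.0, 69.6 and 62.9 CPM with MYCi975 and 39.5, 36.5 and 43.5 CPM with DMSO. ASNS is asparagine synthetase, and PC3 had the lower level with DMSO and the higher level with MYCi975 (interaction 1.998, 1.82 to 2.17, adjusted p = 5.29e-21). Stress-induced inhibitors of the growth kinase mTORC1 followed. SESN2 measured 59.1, 57.1 and 60.9 CPM in MYCi975-treated PC3 and 5.90, 7.01 and 6.75 CPM in PC3 with DMSO. The P493-6 libraries held 28.7, 30.2 and 31.9 CPM with MYCi975 and 17.6, 18.7 and 16.4 CPM with DMSO. SESN2 encodes sestrin 2, and the groups did not overlap in either line (interaction 2.24, 1.999 to 2.48, adjusted p = 2.4e-18). DDIT4 was at 47.2, 44.5 and 42.5 CPM in PC3 with MYCi975, against 3.33, 3.70 and 4.02 CPM in PC3 with DMSO. With MYCi975 the P493-6 values were 61.9, 57.6 and 63.7 CPM, and with DMSO they were 25.7, 29.7 and 20.6 CPM. DDIT4, also called REDD1, ended at the lower level in PC3 but started there from a far lower one (interaction 2.04, 1.77 to 2.31, adjusted p = 3.95e-15).

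The transcription factors of the response differed among themselves. ATF4 had an interaction of 1.54, DDIT3, the death-linked factor CHOP, of 1.79, CEBPB of 1.86 and CEBPG of 1.45, all called. ATF3 was closer between the lines, with changes of 1.77 in PC3 and 1.29 in P493-6 (interaction 0.48). ATF5 went the other way. In PC3, ATF5 stood at 44.4, 37.8 and 37.7 CPM with MYCi975 and at 65.9, 63.8 and 60.6 CPM with DMSO. The values in P493-6 were 373, 341 and 403 CPM with MYCi975 and 216, 223 and 210.0 CPM with DMSO. It fell in PC3 and rose in P493-6, with no overlap of groups in either line (interaction −1.43, −1.60 to −1.26, adjusted p = 1.87e-13). ALDH1L2, a mitochondrial folate enzyme, was the other member with a lower interaction, at changes of −0.07 in PC3 and 0.94 in P493-6. The 3 members with no called difference were VLDLR, CTH and GPT2. VLDLR, a lipoprotein receptor, had changes of 1.61 in PC3 and 2.05 in P493-6, and the interval of its interaction ran from −0.99 to 0.10, so a sizeable difference is within it.

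The ATF4 composite element TGATGNAA was looked for on both strands in the 250 bases before each RefSeq gene start (build GRCh38.p14), where N is any base. It was present for 5 of the 24 integrated stress response genes that had a promoter in the table, and for 3.89% of all 27305 genes. A match is a run of letters and not a shown binding site. Stretches of 80 bases are given for ASNS (chr7:97872433-97872512 on the minus strand) and CHAC1, a glutathione-degrading enzyme gene with changes of 3.02 in PC3 and 1.77 in P493-6 (chr15:40953226-40953305 on the plus strand), with the element in capitals, in CHAC1 as its reverse complement. The promoters printed here and below were picked after values and matches were seen, to show what the motif of each list looks like in a gene described in the text.

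ASNS: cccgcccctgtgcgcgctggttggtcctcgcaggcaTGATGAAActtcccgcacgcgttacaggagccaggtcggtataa
CHAC1: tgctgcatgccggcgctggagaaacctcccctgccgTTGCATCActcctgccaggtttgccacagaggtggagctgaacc

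**Figure D3:**
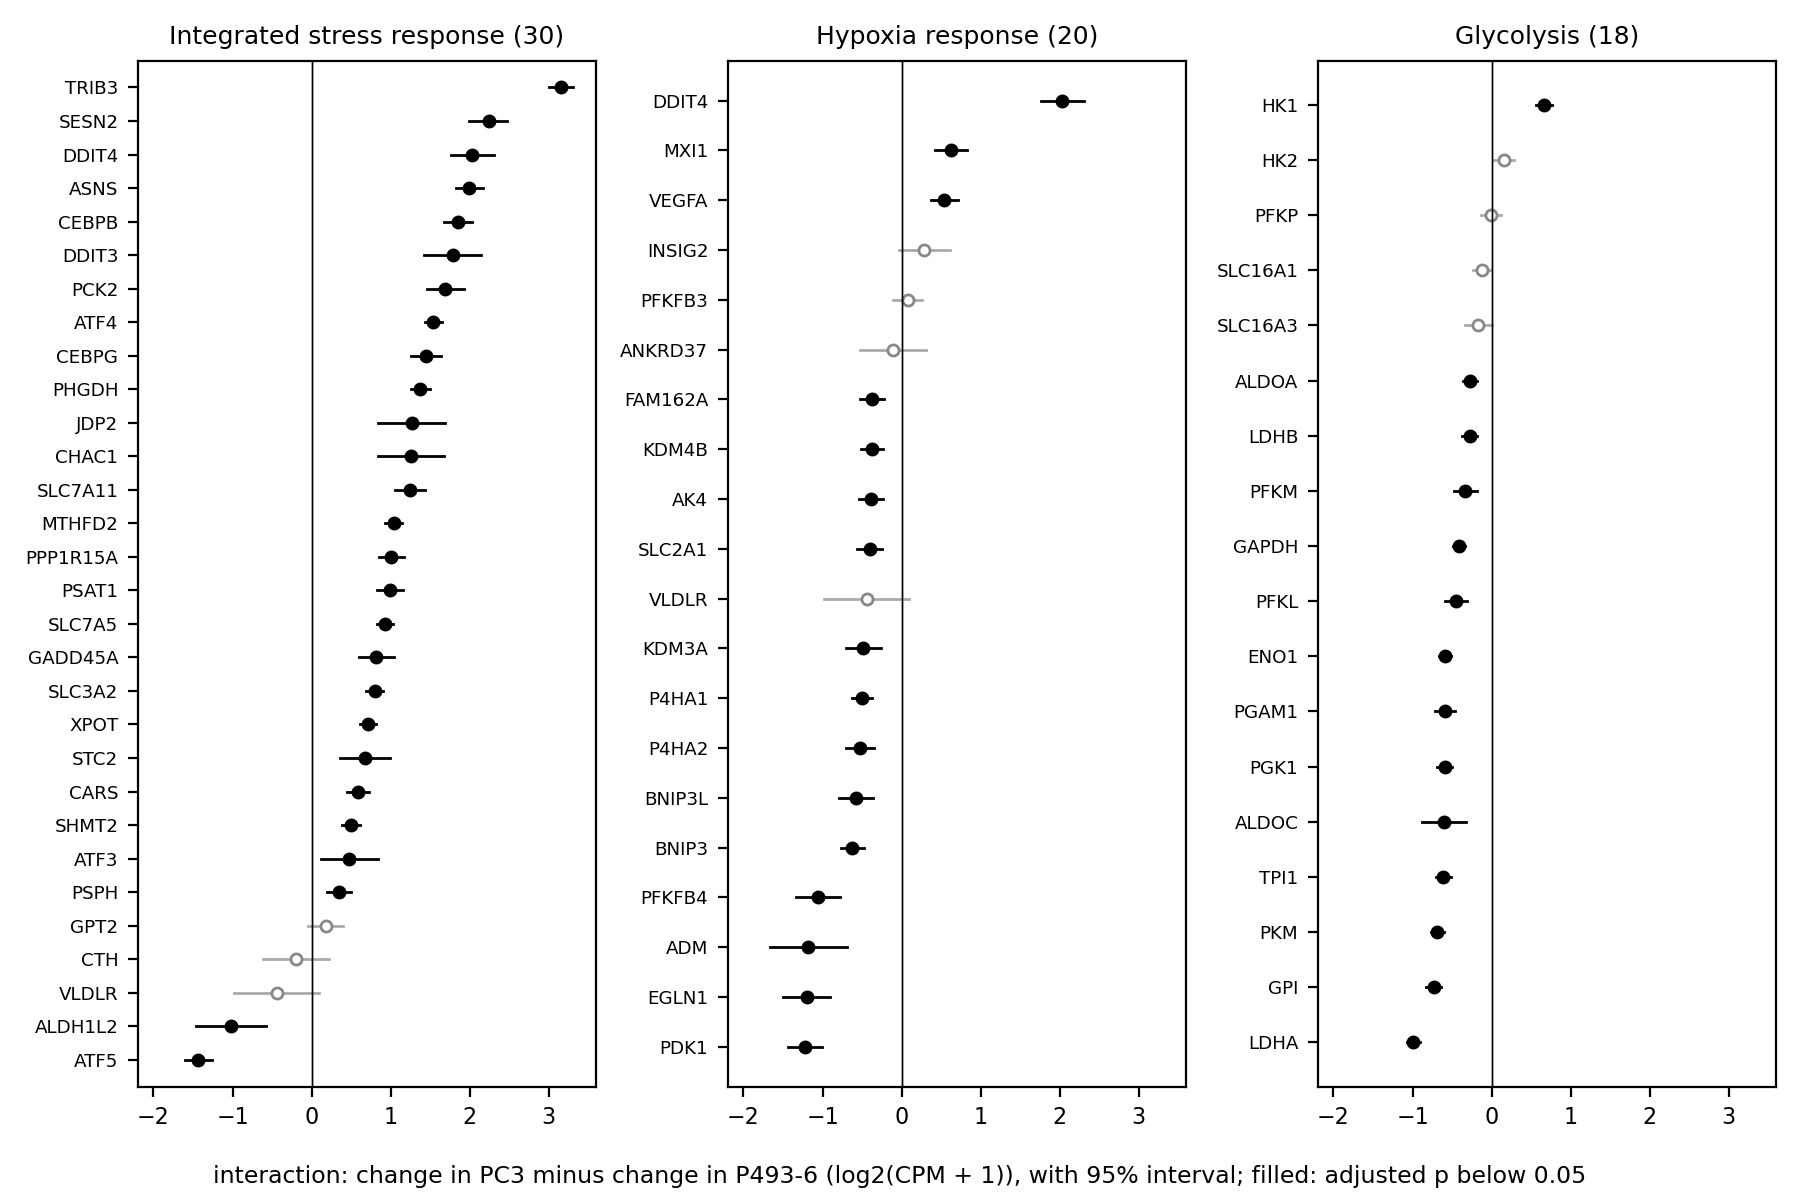
Interaction (change in PC3 minus change in P493-6, log2(CPM + 1) scale) with its 95% interval for the members of 3 gene lists, filled where the adjusted p was below 0.05. In the integrated stress response 25 of 30 members lie to the right with a call, and in hypoxia 13 of 20 and in glycolysis 13 of 18 lie to the left with a call, with DDIT4 and HK1 as the rightmost members of these.

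Genes for charging and importing amino acids followed. Aminoacyl-tRNA synthetases attach amino acids to their tRNAs, and 13 of 20 had the interaction higher in PC3 and 4 lower, with a median of 0.463. The rise was uneven within the family. AARS, GARS, YARS and EPRS had interactions of 1.21, 1.10, 1.02 and 0.85. DARS, HARS, KARS and FARSA had interactions of −0.28, −0.28, −0.27 and −0.23. AARS measured 527, 524 and 520.0 CPM in MYCi975-treated PC3 and 204, 204 and 204 CPM in PC3 with DMSO. For P493-6 the levels were 291, 306 and 317 CPM with MYCi975 and 281, 269.9 and 274 CPM with DMSO. The alanyl-tRNA synthetase AARS was thus higher with MYCi975 in both lines and by more in PC3. Among amino acid transporters 10 of 17 members were higher and 3 lower, with a median of 0.362. SLC7A11, which brings in cystine for glutathione, had changes of 1.94 in PC3 and 0.70 in P493-6, SLC7A5, which carries leucine, of 1.11 in PC3 and 0.18 in P493-6 and SLC1A4 of 1.18 in PC3 and 0.31 in P493-6. SLC6A9, a glycine carrier, rose in both lines and by less in PC3, with changes of 1.17 in PC3 and 1.62 in P493-6 (interaction −0.44).

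Genes of the unfolded protein response rose more in PC3, though by less than those of the integrated stress response. Of 23 members, 17 had the interaction higher in PC3 and 2 lower, with a median of 0.328. In PC3 18 rose and 0 fell, and in P493-6 11 rose and 4 fell. HSPA5 was at 1538, 1490 and 1396 CPM in PC3 with MYCi975, against 539, 535 and 535 CPM in PC3 with DMSO. Levels of 684, 666 and 644 CPM with MYCi975 and 659.7, 669 and 692 CPM with DMSO were measured in P493-6. HSPA5, the main chaperone of the endoplasmic reticulum known as BiP, rose in PC3 and had overlapping groups in P493-6, and the difference itself was called (interaction 1.48, 1.38 to 1.57, adjusted p = 6.7e-25). The stress sensor kinase ERN1 (IRE1) rose in both lines by 2.33 in PC3 and 1.07 in P493-6, and so did HERPUD1, a part of the degradation machinery, by 1.83 in PC3 and 0.73 in P493-6, and DNAJB9, a cochaperone, by 1.49 in PC3 and 0.49 in P493-6. Some folding enzymes of the same compartment differed less between the lines. PDIA3 had an interaction of 0.06 and CANX of 0.07, neither called, and PDIA4 of −0.16, called lower.

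The ER stress element was found for 7 of 22 genes of the unfolded protein response list with a promoter and for 0.0916% of all 27305 genes. The stretch before HSPA5 that holds it (chr9:125241361-125241440 on the minus strand) is given with the element in capitals.

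HSPA5: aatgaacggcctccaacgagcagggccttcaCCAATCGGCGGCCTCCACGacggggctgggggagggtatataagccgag

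Antioxidant and lysosomal genes rose in PC3, and most did not pass the test in P493-6. NRF2 turns on genes for glutathione and detoxification, and 16 of 22 of its listed targets had the interaction higher in PC3 and 1, the exporter ABCC1, lower. The median change was 0.405 in PC3 and 0.02 in P493-6, where 3 rose and 4 fell. In PC3, HMOX1 stood at 33.0, 37.3 and 35.3 CPM with MYCi975 and at 8.16, 9.87 and 9.56 CPM with DMSO. P493-6 showed 21.8, 22.7 and 21.7 CPM with MYCi975, against 21.4, 19.9 and 22.7 CPM with DMSO. HMOX1 encodes heme oxygenase 1, and its P493-6 groups overlapped (interaction 1.78, 1.53 to 2.04, adjusted p = 7.08e-15). GCLC, the enzyme that limits glutathione synthesis, had changes of 1.21 in PC3 and 0.01 in P493-6, and the ferritin light chain FTL of 1.06 in PC3 and 0.08 in P493-6, a value that is uncertain because FTL has near-identical copies. NQO1 and TXNRD1 rose in PC3 and fell in P493-6, with changes of 0.41 in PC3 and −0.25 in P493-6 for NQO1 and 0.62 in PC3 and −0.13 in P493-6 for TXNRD1. Among 29 lysosomal and autophagy genes 22 rose in PC3 and 7 in P493-6, and the interaction was higher for 19 and lower for 0, with a median of 0.357. SQSTM1 measured 2299, 2223 and 2269 CPM in MYCi975-treated PC3 and 814, 792 and 829 CPM in PC3 with DMSO. In P493-6 it was at 85.5, 90.8 and 87.3 CPM with MYCi975, against 75.9, 81.9 and 73.0 CPM with DMSO. SQSTM1 encodes the autophagy receptor p62 and is itself a known NRF2 target (interaction 1.29, 1.18 to 1.40, adjusted p = 1.79e-21). The lysosomal hydrolase gene NEU1 had changes of 0.99 in PC3 and 0.05 in P493-6. Subunits of the lysosomal proton pump mostly showed no called difference, as for ATP6V1A with 0.08 and ATP6V1H with 0.11.

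Heat shock chaperones and their partners fell in both lines and by more in PC3. Of 19 members 18 fell in PC3 and 17 in P493-6, and the interaction was called lower in PC3 for 14 and higher for 1, with a median of −0.27. HSP90AA1 was at 3739, 3867 and 3613 CPM in PC3 with MYCi975, against 7099, 7498 and 7536 CPM in PC3 with DMSO. P493-6 had 2311, 2386 and 2462 CPM with MYCi975 and 3533, 3363 and 3263 CPM with DMSO. HSP90AA1 is the stress-inducible form of HSP90 (interaction −0.48, −0.56 to −0.39, adjusted p = 2e-10). Its partner form HSP90AB1 had changes of −0.76 in PC3 and −0.30 in P493-6 and the cochaperone DNAJA1 of −0.88 in PC3 and −0.31 in P493-6. HSPH1 and HSPE1 showed no called difference, with interactions of 0.12 and −0.11. The small chaperone HSPB1 was the member with the higher interaction, 0.24, since it fell in P493-6 and had a change of −0.07 in PC3.

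The heat shock element, in its form with 3 inverted repeats, was found for 5 of 18 genes of the list with a promoter and for 0.557% of all genes. In the stretch before HSP90AA1 (chr14:102087087-102087166 on the minus strand) it lies as its reverse complement, in capitals.

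HSP90AA1: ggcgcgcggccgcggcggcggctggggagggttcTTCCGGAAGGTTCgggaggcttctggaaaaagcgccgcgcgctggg

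Cell division genes fell in both lines, and the fall was deeper in PC3. Of 36 members of the list for DNA replication and S phase entry 35 fell in PC3 and 33 in P493-6, and 30 had the interaction lower in PC3 and 0 higher, with a median of −0.48. Of 30 mitosis genes 30 fell in PC3 and 26 in P493-6, and 28 were lower and 0 higher, with a median of −0.66. In PC3, UHRF1 stood at 74.7, 72.5 and 70.6 CPM with MYCi975 and at 201, 204 and 201 CPM with DMSO. The P493-6 libraries held 117, 122 and 121 CPM with MYCi975 and 150.0, 144 and 154 CPM with DMSO. UHRF1 helps copy DNA methylation at the replication fork (interaction −1.15, −1.27 to −1.03, adjusted p = 1.61e-18). KIF20A measured 34.5, 34.2 and 34.3 CPM in MYCi975-treated PC3 and 109, 112 and 109.5 CPM in PC3 with DMSO. With MYCi975 the P493-6 values were 74.9, 75.5 and 73.7 CPM, and with DMSO they were 102, 96.0 and 93.5 CPM. KIF20A is a kinesin of cytokinesis, and its groups did not overlap in either line (interaction −1.28, −1.42 to −1.14, adjusted p = 6.61e-18). The mitotic kinase gene PLK1 had changes of −1.40 in PC3 and −0.20 in P493-6 and the topoisomerase gene TOP2A of −1.19 in PC3 and −0.16 in P493-6. CDT1, which licenses replication origins, fell in PC3 with a change of −1.10 and had −0.02 in P493-6. Some members of the same lists changed by close amounts. CDC45, a helicase subunit, had changes of −0.40 in PC3 and −0.47 in P493-6, and RFC4, a clamp loader subunit, of −0.41 in PC3 and −0.31 in P493-6, with intervals of the interaction from −0.14 to 0.28 and from −0.32 to 0.12.

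Histone genes had the lowest median interaction of any list, −0.87, with median changes of −0.94 in PC3 and −0.12 in P493-6. All 21 members fell in PC3 and 9 fell in P493-6, and the interaction was lower in PC3 for 18 and higher for 0. Most histone transcripts are made in S phase and end without a poly(A) tail. Most come from near-identical copies, so single values are uncertain. HIST1H3D was at 25.4, 26.0 and 26.5 CPM in PC3 with MYCi975, against 95.1, 90.8 and 87.5 CPM in PC3 with DMSO. The values in P493-6 were 275, 269 and 250 CPM with MYCi975 and 252, 274 and 269 CPM with DMSO. The histone H3 gene HIST1H3D thus had overlapping groups in P493-6 and far apart ones in PC3 (interaction −1.77, −1.90 to −1.64, adjusted p = 9.57e-23). H2AC4 had changes of −1.95 in PC3 and −0.25 in P493-6 and H2BC14 of −1.97 in PC3 and −0.40 in P493-6.

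**Figure D4:**
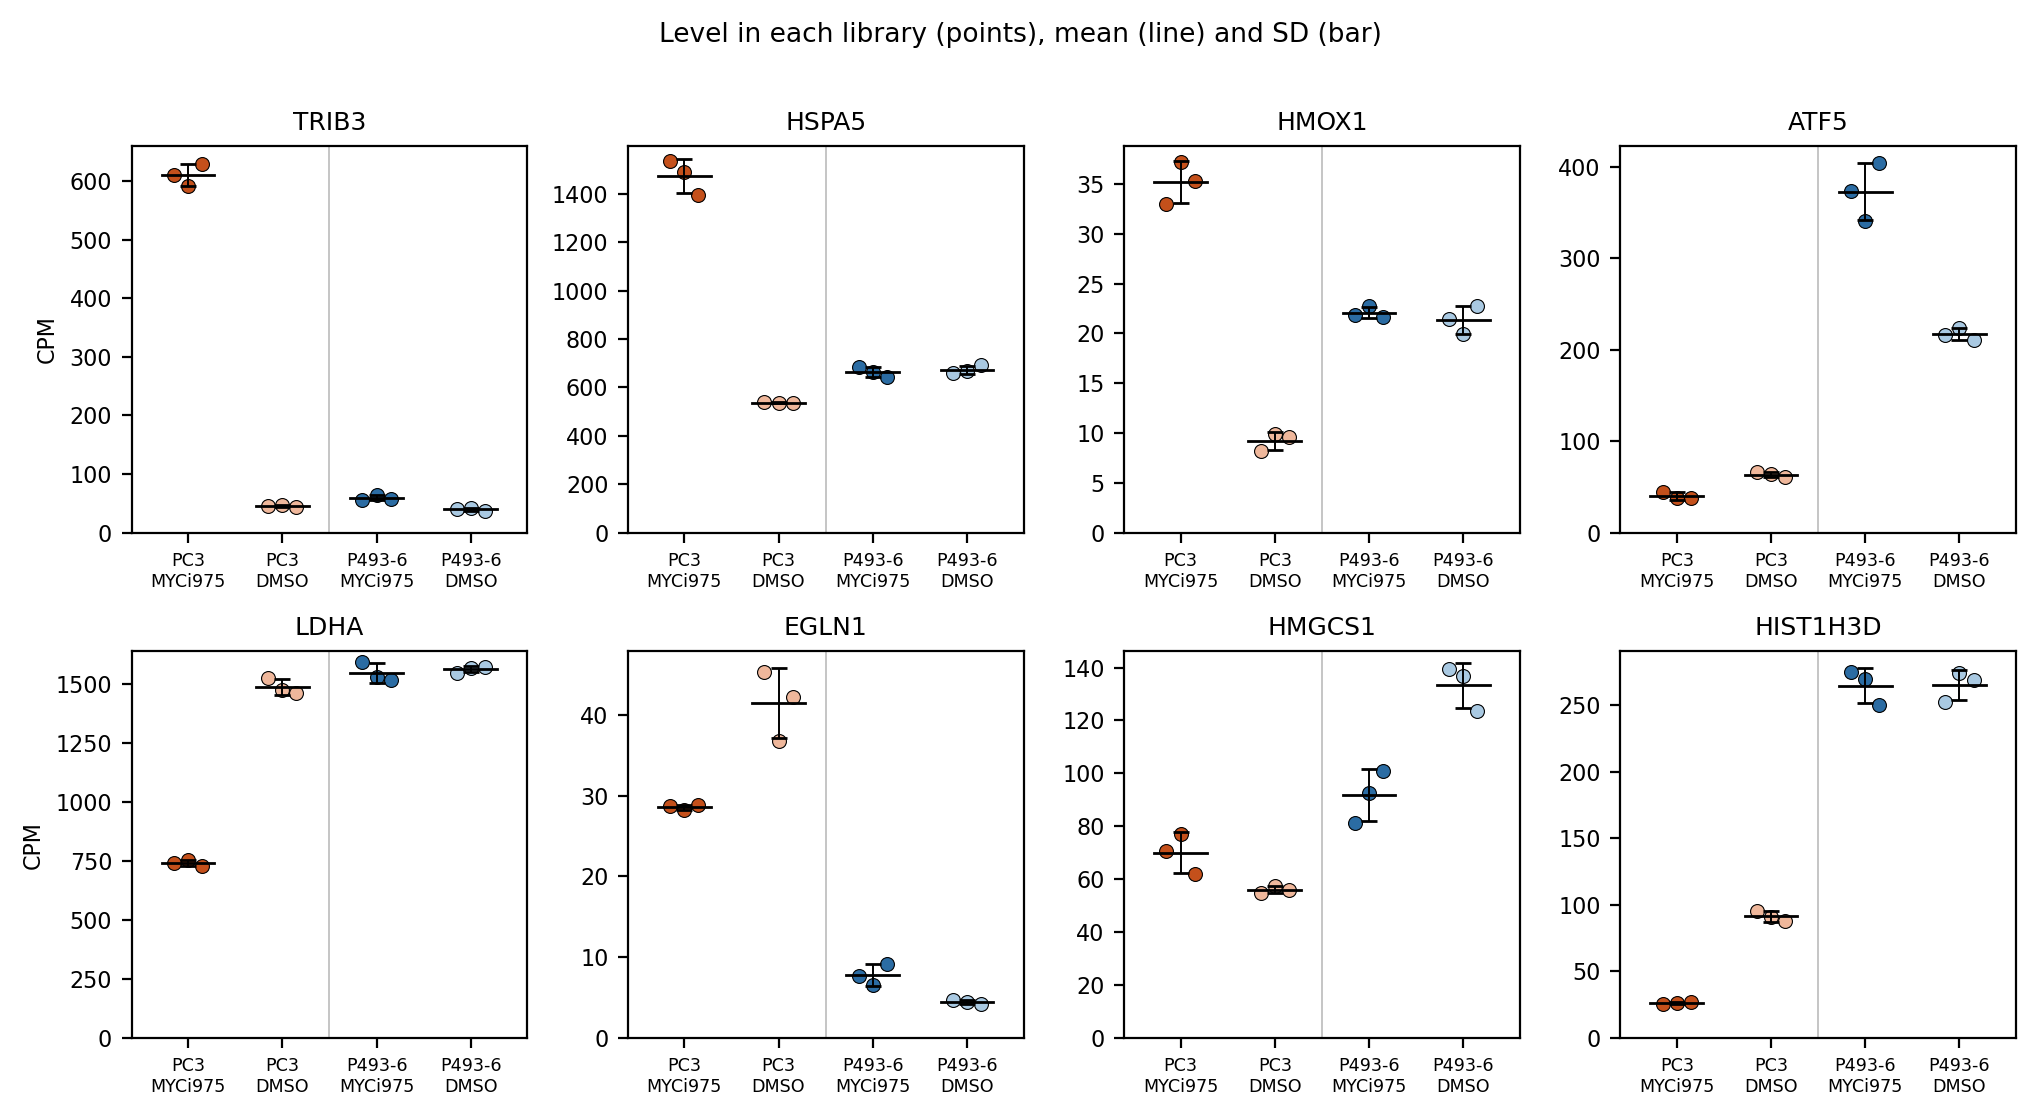
Expression in CPM of 8 genes in each of the 12 libraries (points), with the mean of each group (line) and its SD (bar), n = 3 per group. TRIB3, HSPA5 and HMOX1 are high in PC3 with MYCi975, LDHA and HIST1H3D are low there, and ATF5, EGLN1 and HMGCS1 move in opposite directions in the lines.

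Genes of ribosome assembly and nucleotide synthesis, classic targets of MYC, fell in both lines. Of 38 nucleolar assembly factors 33 fell in PC3 and 27 in P493-6, 0 rose in either line, and the interaction was lower in PC3 for 23 and higher for 0, with a median of −0.22. RRS1, needed for the large subunit, had changes of −0.74 in PC3 and −0.16 in P493-6, and the box C/D protein gene NOP58 of −0.75 in PC3 and −0.22 in P493-6. NPM1 and NCL, abundant nucleolar proteins, had interactions of −0.18 and −0.27. DDX21, GNL3 and FBL had no called difference, and their intervals ran from −0.04 to 0.17, from −0.14 to 0.10 and from −0.21 to 0.03. Among 26 nucleotide synthesis genes 18 were lower and 1 higher. In PC3, TYMS stood at 85.2, 84.2 and 82.3 CPM with MYCi975 and at 202, 204 and 204 CPM with DMSO. For P493-6 the levels were 218, 216 and 210.4 CPM with MYCi975 and 271, 269 and 256 CPM with DMSO. TYMS is thymidylate synthase (interaction −0.96, −1.07 to −0.85, adjusted p = 1.5e-17), and the ribonucleotide reductase subunit RRM2 had changes of −1.45 in PC3 and −0.74 in P493-6.

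Ribosomal protein genes did not share that pattern. Of 57 cytosolic ribosomal protein genes 47 rose in PC3 and 52 rose in P493-6, and the interaction was lower for 15 and higher for 1. Their interactions lay between −0.22 and 0.17, and for all 57 the 95% interval stayed within −0.5 and 0.5. RPL35 had the lowest, with changes of −0.18 in PC3 and 0.04 in P493-6, and RPS3 rose in both lines by 0.12 in PC3 and 0.31 in P493-6. Ribosomal protein genes have many processed copies, so the values are uncertain. Of 45 mitochondrial ribosomal protein genes 31 fell in PC3 and 26 in P493-6. The interaction was higher for 4 (8.89%) and lower for 9 (20%), against 18.1% and 18.2% of all genes. MRPS15, MRPS16 and MRPL24 rose in PC3 and fell in P493-6, with interactions of 0.46, 0.36 and 0.33. Among nuclear-encoded energy genes, 6 of 36 respiratory chain genes had a higher and 4 a lower interaction, and of 18 tricarboxylic acid cycle genes 2 were higher and 4 lower, shares near or under the 36.3% called among all genes. Subunits of succinate dehydrogenase were split, with SDHC at 0.38, SDHD at 0.31 and SDHA at −0.30.

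Most glycolytic genes fell in PC3, and none passed the test as a fall in P493-6. Of 18 members 13 fell and 3 rose in PC3, whereas 0 fell and 9 rose in P493-6, and the interaction was lower in PC3 for 13 and higher for 1. The median change was −0.35 in PC3 and 0.10 in P493-6. Members from the start to the end of the pathway were among them. LDHA measured 740.2, 753 and 728 CPM in MYCi975-treated PC3 and 1527, 1473 and 1464 CPM in PC3 with DMSO. Levels of 1595, 1529 and 1517 CPM with MYCi975 and 1549, 1567 and 1573 CPM with DMSO were measured in P493-6. LDHA, which makes lactate from pyruvate, had overlapping groups in P493-6 (interaction −0.99, −1.07 to −0.91, adjusted p = 1.36e-21). GPI was at 133, 134 and 134 CPM in PC3 with MYCi975, against 199.6, 193 and 199 CPM in PC3 with DMSO. P493-6 showed 634, 633 and 658 CPM with MYCi975, against 556, 582 and 566 CPM with DMSO. GPI, the isomerase at the second step, thus fell in PC3 and rose in P493-6 (interaction −0.73, −0.83 to −0.63, adjusted p = 1.89e-15). PKM, PGK1, TPI1, PFKL and ALDOA also fell in PC3 and rose in P493-6, with interactions of −0.69, −0.59, −0.61, −0.45 and −0.28. The rise of PKM in P493-6 was narrow, at 0.09 with an adjusted p of 0.0492. HK1, which starts glycolysis by trapping glucose in the cell, was the exception. In PC3, HK1 stood at 659.8, 644 and 642 CPM with MYCi975 and at 377, 379 and 378 CPM with DMSO. In P493-6 it was at 116, 115 and 111 CPM with MYCi975, against 107, 103 and 107 CPM with DMSO. It rose in PC3, and the difference was called (interaction 0.66, 0.56 to 0.77, adjusted p = 1.01e-13).

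The E-box CACGTG was found for 5 of 17 glycolytic genes with a promoter and for 7.73% of all genes. LDHA held 2 in a stretch of 124 bases (chr11:18394368-18394491 on the plus strand), given with both in capitals.

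LDHA: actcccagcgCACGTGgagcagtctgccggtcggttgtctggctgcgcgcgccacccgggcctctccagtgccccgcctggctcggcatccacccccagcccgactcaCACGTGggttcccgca

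The hypoxia list rose in P493-6 and was mixed in PC3. These are genes that HIF1 turns on when oxygen is low, several of them also reached by other stress pathways. Of 20 members 17 rose and 0 fell in P493-6, while 9 rose and 5 fell in PC3, and the interaction was lower in PC3 for 13 and higher for 3. The median change was 0.11 in PC3 and 0.56 in P493-6. PDK1 measured 19.0, 23.5 and 19.4 CPM in MYCi975-treated PC3 and 27.6, 26.7 and 25.4 CPM in PC3 with DMSO. P493-6 had 64.2, 65.8 and 73.6 CPM with MYCi975 and 38.6, 36.6 and 34.6 CPM with DMSO. PDK1 keeps pyruvate out of mitochondria and moved in opposite directions (interaction −1.23, −1.44 to −1.01, adjusted p = 4.22e-12). EGLN1 was at 28.7, 28.2 and 28.8 CPM in PC3 with MYCi975, against 45.3, 36.8 and 42.2 CPM in PC3 with DMSO. The P493-6 libraries held 7.61, 6.51 and 9.19 CPM with MYCi975 and 4.65, 4.42 and 4.20 CPM with DMSO. EGLN1 is the oxygen sensor PHD2 that marks HIF1 for degradation (interaction −1.20, −1.50 to −0.90, adjusted p = 1.99e-08). In PC3, P4HA1 stood at 223, 227 and 220.1 CPM with MYCi975 and at 184, 182 and 183 CPM with DMSO. With MYCi975 the P493-6 values were 104, 94.8 and 105 CPM, and with DMSO they were 58.5, 59.9 and 57.2 CPM. P4HA1, a collagen prolyl hydroxylase, rose in both lines and by less in PC3 (interaction −0.50, −0.62 to −0.37, adjusted p = 2.75e-08). The same held for BNIP3L, a mitophagy receptor, with changes of 0.27 in PC3 and 0.85 in P493-6, and for P4HA2 with 0.14 in PC3 and 0.66 in P493-6. The glucose carrier gene SLC2A1 fell in PC3 and rose in P493-6, with changes of −0.23 in PC3 and 0.17 in P493-6. PFKFB4 and ADM rose in P493-6, by 1.02 and 0.95, and had changes of −0.03 and −0.23 in PC3 that did not pass the test. ADM was at 2.14 to 2.47 CPM with MYCi975 and at 0.409 to 1.31 CPM with DMSO in P493-6, so its fold rests on few reads. The 3 members with the higher interaction were DDIT4, which is in the integrated stress response list too, VEGFA at 0.54 and MXI1 at 0.63.

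The core of the hypoxia element, searched as NACGTG, was found for 12 of 18 hypoxia genes with a promoter, for 11 of 17 glycolytic genes and for 21.7% of all genes. The other form, NGCGTG, was found for 12 of 18 hypoxia genes, 10 of 17 glycolytic genes and 36.1% of all genes. Every E-box also matches NACGTG, so the E-box search and the NACGTG search overlap. The bases just before the RefSeq start of EGLN1 (chr1:231422288-231422367 on the minus strand) are given with the match in capitals.

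EGLN1: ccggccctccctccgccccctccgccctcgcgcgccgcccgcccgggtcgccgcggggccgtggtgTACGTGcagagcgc

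Cholesterol synthesis genes fell in P493-6 and were mixed to higher in PC3. Of 24 members 14 fell and 1 rose in P493-6, while 12 rose and 6 fell in PC3, and the interaction was higher in PC3 for 14 and lower for 1. The median change was 0.13 in PC3 and −0.23 in P493-6. HMGCS1 measured 70.8, 77.2 and 62.1 CPM in MYCi975-treated PC3 and 54.7, 57.6 and 55.9 CPM in PC3 with DMSO. The values in P493-6 were 81.3, 92.7 and 101 CPM with MYCi975 and 139.5, 137 and 124 CPM with DMSO. HMGCS1 makes the precursor of mevalonate (interaction 0.85, 0.62 to 1.08, adjusted p = 5.57e-06). INSIG1 was at 62.0, 60.1 and 66.3 CPM in PC3 with MYCi975, against 35.4, 33.1 and 37.7 CPM in PC3 with DMSO. For P493-6 the levels were 75.4, 69.2 and 77.5 CPM with MYCi975 and 86.2, 97.5 and 86.3 CPM with DMSO. INSIG1 holds the sterol sensor in the endoplasmic reticulum, and it also rose in PC3 and fell in P493-6 (interaction 1.09, 0.91 to 1.26, adjusted p = 2.36e-13). LSS, FDFT1 and MVD did likewise, with interactions of 0.67, 0.56 and 0.56. Fatty acid synthesis genes were divided, with 5 of 14 higher and 4 lower. SREBF1, the regulator of that pathway, fell in both lines, with changes of −0.18 in PC3 and −0.51 in P493-6. ACSS2, which makes acetyl-CoA from acetate, rose in PC3 by 0.89 and was at 1.09 to 1.90 CPM with MYCi975 and at 1.54 to 2.04 CPM with DMSO in P493-6.

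MYC mRNA was far lower in PC3 than in P493-6, and it rose in both lines. In PC3, MYC stood at 378, 359 and 386 CPM with MYCi975 and at 301, 300.4 and 309 CPM with DMSO. Levels of 5138, 5084 and 5132 CPM with MYCi975 and 4692, 4701 and 4791 CPM with DMSO were measured in P493-6. The rise of MYC mRNA was thus larger in PC3 by 0.19 (0.10 to 0.27, adjusted p = 0.000353), and the single MYC entry pools the P493-6 transgene with the endogenous gene. MAX showed no called difference, with changes of −0.09 in PC3 and 0.02 in P493-6 and an interval of the interaction from −0.24 to 0.02. Of 11 genes of the MYC network 5 had a higher interaction, 1 a lower one and 5 none that was called, and in PC3 5 rose and 2 fell. The factors that compete with MYC for MAX were divided. MXD1 had changes of 1.40 in PC3 and 0.62 in P493-6 and MXI1 of 1.02 in PC3 and 0.40 in P493-6, and MNT rose in PC3 by 0.57 with −0.06 in P493-6. MXD3 and MXD4 fell in PC3 and had no called interaction, with changes of −0.50 in PC3 and −0.13 in P493-6 for MXD3 and of −0.18 in PC3 and 0.05 in P493-6 for MXD4. MYCL, a relative of MYC, stood at 1.63 to 2.21 CPM with MYCi975 and 2.01 to 3.04 CPM with DMSO in PC3. In P493-6 it stood at 0.9409 to 1.597 CPM with MYCi975 and 0.3275 to 0.8185 CPM with DMSO, which is few reads. Its changes of −0.21 in PC3 and 0.54 in P493-6 did not pass the test in either line. The interaction of MYCL was −0.76 (adjusted p = 0.0273). It was not called without PC3 MYCi975 replicate 2 or 3, PC3 DMSO replicate 3, P493-6 MYCi975 replicate 2 or 3, or P493-6 DMSO replicate 2, where it ran from −0.74 to −0.62.

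Genes induced early by growth factors and stress were divided between the directions. Of 21 immediate early genes and their feedback regulators 9 were higher and 5 lower. ZFP36 measured 17.9, 20.8 and 22.1 CPM in MYCi975-treated PC3 and 4.39, 5.58 and 6.07 CPM in PC3 with DMSO. P493-6 showed 41.5, 40.4 and 45.6 CPM with MYCi975, against 46.3, 43.5 and 42.6 CPM with DMSO. ZFP36 speeds the decay of cytokine mRNAs (interaction 1.80, 1.53 to 2.07, adjusted p = 3.47e-14). The MAP kinase phosphatase genes DUSP5 and DUSP1 had changes of 1.54 in PC3 and 0.35 in P493-6 and of 1.27 in PC3 and 0.19 in P493-6. JUN and KLF10 had lower interactions, −0.30 and −0.28, and SPRED1 of −0.57. The list's median interaction of 0.277 came to −0.03 without the 3 members that have under 1% of the PC3 level in P493-6, DUSP4, FOSL1 and IER3.

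Of 23 genes of the p53 list 10 were higher and 5 lower in PC3. CDKN1A, the cyclin-dependent kinase inhibitor p21, rose in PC3. CDKN1A was at 24.8, 26.5 and 21.9 CPM in PC3 with MYCi975, against 8.04, 7.20 and 5.24 CPM in PC3 with DMSO. In P493-6 it was at 45.1, 51.9 and 52.1 CPM with MYCi975, against 42.6, 45.2 and 46.9 CPM with DMSO. Its groups overlapped in P493-6 (interaction 1.57, 1.27 to 1.86, adjusted p = 5.95e-10). BBC3, a BH3 protein that promotes death, had changes of 1.65 in PC3 and 0.19 in P493-6, and SESN2 and GADD45A are shared with the integrated stress response list. DDB2 and PPM1D fell in PC3, with changes of −0.82 and −0.56, with −0.13 and −0.03 in P493-6.

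Immune genes had called interactions in shares near or above the 36.3% of all genes, and the only 1 of 13 MHC class II genes listed in both lines had no called interaction. Of 23 interferon-stimulated genes 8 were higher and 1 lower, and 14 had no called difference. IFIT2 and IFIT3 rose in PC3, by 0.99 and 0.62, with 0.13 and −0.14 in P493-6, whereas MX1 fell in P493-6 by 0.83 with −0.13 in PC3. Of 16 genes for antigen presentation through MHC class I, 10 rose in PC3 and 9 in P493-6, and the interaction was higher for 6 and lower for 0, with a median of 0.0134. HLA-C, uncertain because of its near-identical relatives, had changes of 0.45 in PC3 and 0.19 in P493-6, and the peptide trimming enzyme gene ERAP1 of 0.62 in PC3 and 0.36 in P493-6. Of 14 NF-kB and inflammatory genes 6 were higher and 2 lower. RELB rose in both lines by 1.31 in PC3 and 0.52 in P493-6, while NFKB1 fell in PC3 by 0.59 with 0.04 in P493-6. Of 10 epithelial-mesenchymal and YAP target genes 4 were higher and 1 lower. Among the higher ones, ITGA3 stood at 2.149 to 2.702 CPM and AMOTL2 at 1.579 to 3.685 CPM in P493-6. ZEB2 stood at 0.1947 to 1.275 CPM in PC3, so these interactions rest on few reads in 1 line. Those of AMOTL2 and ZEB2 were not called in some alternatives. The lower one was CD44, an adhesion receptor. In PC3, CD44 stood at 342, 348 and 341 CPM with MYCi975 and at 396, 399 and 392 CPM with DMSO. P493-6 had 306, 299 and 327 CPM with MYCi975 and 223, 209 and 219 CPM with DMSO. It fell in PC3 and rose in P493-6 (interaction −0.72, −0.82 to −0.61, adjusted p = 1.96e-14).

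Outside the lists, more genes had the largest interactions among those with a mean of at least 5 CPM in both lines. On the higher side stood RGCC, a cell cycle regulator, BMF, a BH3 protein that promotes death, the metallothionein gene MT1X, RBCK1, a part of a ubiquitin ligase, and TCP11L2. RGCC measured 16.5, 15.02 and 21.2 CPM in MYCi975-treated PC3 and 2.20, 2.21 and 3.26 CPM in PC3 with DMSO. The P493-6 libraries held 31.3, 37.3 and 29.2 CPM with MYCi975 and 34.1, 34.6 and 29.7 CPM with DMSO. RGCC thus rose in PC3 to a level still under that of P493-6 (interaction 2.40, 2.04 to 2.75, adjusted p = 1.66e-12). BMF was at 35.0, 32.4 and 33.0 CPM in PC3 with MYCi975, against 7.47, 6.04 and 7.21 CPM in PC3 with DMSO. With MYCi975 the P493-6 values were 22.4, 26.9 and 22.9 CPM, and with DMSO they were 31.7, 25.7 and 23.1 CPM. BMF also rose in PC3, there to a level above both P493-6 groups, which overlapped (interaction 2.27, 1.99 to 2.56, adjusted p = 4.75e-16). MT1X, uncertain because metallothionein genes are near-identical, had an interaction of 2.06, RBCK1 of 1.95 and TCP11L2 of 1.81. RBCK1 lies beside TRIB3 on chromosome 20, at 407498 to 430966 against 362835 to 397559 on hg38, both on the plus strand.

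On the lower side the same rule named 8 entries from the histone cluster on chromosome 6, 1 of them without a symbol in the tables, and 4 other genes. In PC3, MAP2K6 stood at 1.40, 1.77 and 2.19 CPM with MYCi975 and at 15.7, 15.4 and 13.1 CPM with DMSO. The values in P493-6 were 5.82, 6.42 and 6.49 CPM with MYCi975 and 8.53, 7.45 and 6.34 CPM with DMSO. MAP2K6, a kinase that activates p38, had the lowest interaction of all genes (interaction −2.29, −2.68 to −1.89, adjusted p = 1.89e-12). FAM43A fell in PC3 and rose in P493-6, with changes of −1.43 in PC3 and 0.31 in P493-6. FAM111B, a protease gene of replicating cells, fell in both lines, with changes of −2.23 in PC3 and −0.69 in P493-6. ATF5 was the fourth.

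Among genes that changed in opposite directions, the pattern with rises in PC3 and falls in P493-6 was led by KRT81, CDCP1, SAMD9L, FMO4, BIK, PLAU, PDZD2, C4orf32, LINC00936 and 1 entry without a symbol. KRT81, CDCP1 and PLAU were far more abundant in PC3. KRT81, a keratin, was at 2049, 2019 and 2026 CPM in PC3 with MYCi975 and at 1133, 1042 and 1026 CPM with DMSO. It was at 0.257, 0.79 and 0.699 CPM in P493-6 with MYCi975 and at 1.45, 3.28 and 1.02 CPM with DMSO. CDCP1 and PLAU had the same shape, with P493-6 levels under 1% of those in PC3. There were 31 such genes, 7 of which fell and 0 rose in P493-6, where 2239 of all 11240 joined genes fell and 1188 rose. Their summed level in P493-6 was 55.2 to 59.7 CPM with MYCi975 and 59.5 to 91.1 CPM with DMSO, highest in DMSO replicate 2, which also had the highest KRT81. The libraries carried a single index, and the part of this in those falls was not tested. Another 11 genes were as low in PC3, of which 4 fell and 1 rose there, where 3619 of all 11240 joined genes fell and 3169 rose. Without these 11 and the 31 genes, 333 genes changed in opposite directions.

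BIK measured 2.73, 3.26 and 2.62 CPM in MYCi975-treated PC3 and 1.07, 2.21 and 1.52 CPM in PC3 with DMSO. For P493-6 the levels were 6.93, 5.63 and 6.19 CPM with MYCi975 and 13.1, 11.8 and 11.7 CPM with DMSO. BIK, a BH3 protein that promotes death, was measured at a few CPM in PC3 (interaction 1.46, 1.02 to 1.90, adjusted p = 8.05e-07). C4orf32 was at 16.8, 16.7 and 18.7 CPM in PC3 with MYCi975, against 6.34, 7.53 and 5.69 CPM in PC3 with DMSO. Levels of 7.01, 7.11 and 9.19 CPM with MYCi975 and 11.7, 9.66 and 11.5 CPM with DMSO were measured in P493-6. C4orf32 rose in PC3 and fell in P493-6 without overlap (interaction 1.75, 1.40 to 2.10, adjusted p = 7.87e-11). SAMD9L, an interferon-induced gene, had changes of 0.66 in PC3 and −0.61 in P493-6. It was at only 1.13 to 2.76 CPM in the PC3 libraries.

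The pattern with falls in PC3 and rises in P493-6 was led by VWA1, ATF5, RCOR2, EGLN1, PAG1, ICK, NFIX, MT-CYB, PTPRS and 1 entry without a symbol. In PC3, PAG1 stood at 9.73, 10.6 and 9.97 CPM with MYCi975 and at 17.4, 16.5 and 18.3 CPM with DMSO. P493-6 showed 124, 127 and 121 CPM with MYCi975, against 93.8, 90.6 and 89.0 CPM with DMSO. PAG1, an adaptor that restrains Src kinases, had no overlap in either line (interaction −1.17, −1.36 to −0.99, adjusted p = 1.55e-13). PTPRS measured 263, 264 and 269 CPM in MYCi975-treated PC3 and 344, 347 and 340.2 CPM in PC3 with DMSO. In P493-6 it was at 40.6, 37.0 and 38.5 CPM with MYCi975, against 27.4, 24.9 and 22.1 CPM with DMSO. PTPRS is a receptor tyrosine phosphatase (interaction −0.998, −1.15 to −0.84, adjusted p = 1.8e-13). ICK, a ciliary kinase, had changes of −0.83 in PC3 and 0.43 in P493-6, and the transcription factor gene NFIX of −0.45 in PC3 and 0.43 in P493-6. The mitochondrially encoded cytochrome b, MT-CYB, had a wide spread, with changes of −0.45 in PC3 and 0.39 in P493-6 and an interval of the interaction from −1.19 to −0.49.

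Some genes moved by close amounts in both lines. Of the 2210 genes with the same direction, those with the largest change in both and an interval of the interaction within −0.5 and 0.5 were picked. SKIL was at 91.7, 87.4 and 90.4 CPM in PC3 with MYCi975, against 54.4, 56.6 and 55.9 CPM in PC3 with DMSO. P493-6 had 47.9, 51.8 and 53.3 CPM with MYCi975 and 32.0, 29.1 and 31.8 CPM with DMSO. SKIL, a brake on TGF-beta signalling, had changes of 0.68 in PC3 and 0.70 in P493-6 and an interval from −0.19 to 0.15. In PC3, SEC24D stood at 45.2, 48.4 and 47.6 CPM with MYCi975 and at 24.2, 27.9 and 24.6 CPM with DMSO. The P493-6 libraries held 46.4, 50.3 and 47.8 CPM with MYCi975 and 30.4, 26.3 and 28.6 CPM with DMSO. SEC24D, a coat protein of vesicles that leave the endoplasmic reticulum, had an interval from −0.09 to 0.32. H6PD, BHLHA15 and ST8SIA4 were the other rises without a called difference, with intervals from −0.25 to 0.24, from −0.38 to 0.50 and from −0.35 to 0.37. ST8SIA4 was called lower in PC3 when 5 CPM was added in place of 1. WARS also met the rule, with a called interaction of 0.35. Among falls, ABCA1, which exports cholesterol, had changes of −0.79 in PC3 and −0.64 in P493-6, WDR62, a spindle pole gene, of −0.58 in PC3 and −0.53 in P493-6 and the splicing gene LUC7L of −0.57 in PC3 and −0.53 in P493-6. POLE2 and PYCRL had intervals from −0.43 to 0.03 and from −0.42 to 0.11, and ZWINT a called interaction of −0.34.

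The 71 genes with the larger change in P493-6 were few beside the 876 with the larger change in PC3. TLN2 measured 46.3, 46.5 and 44.5 CPM in MYCi975-treated PC3 and 40.9, 41.5 and 41.6 CPM in PC3 with DMSO. With MYCi975 the P493-6 values were 5.39, 5.33 and 5.19 CPM, and with DMSO they were 1.94, 1.56 and 3.07 CPM. TLN2, a talin that links integrins to actin, led them (interaction −0.87, −1.20 to −0.54, adjusted p = 5.08e-05). BNIP3L, P4HA2 and P4HA1 of the hypoxia list were among the 6 with the largest excess, as was CERK, a ceramide kinase, with changes of 0.13 in PC3 and 0.68 in P493-6. BCYRN1 was at 65.8, 75.6 and 67.7 CPM in PC3 with MYCi975, against 108, 107 and 90.9 CPM in PC3 with DMSO. The values in P493-6 were 34.5, 40.2 and 39.8 CPM with MYCi975 and 75.2, 77.6 and 89.1 CPM with DMSO. BCYRN1, a noncoding RNA with many relatives among repeats and therefore uncertain, was the member that fell (interaction 0.52, 0.30 to 0.74, adjusted p = 0.000537).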

How the data were processed

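Total RNA from cultured cells was made into single-indexed, strand-specific libraries with an exon capture kit (TruSeq RNA Access) and sequenced, per the labels' protocols. The submitters' processing notes name STAR, HTSeq, edgeR and hg38. Their versions, the annotation and whether counting used strand were not given in the sources used here, so antisense and near-identical genes are uncertain. The authors deposited expression as CPM, per the file headers, in 1 table per comparison. Every value was a whole multiple of 1 step within a tolerance of 0.001 reads, so whole reads were recovered for 100% of values in all 12 libraries. A separate check of the units did not recognise such steps in 2 of the P493-6 libraries, and counts were used only for alternatives.

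The PC3 and P493-6 MYCi975 tables were joined on Ensembl identifiers, and 6 per-sample columns of the table with tetracycline were not used. Changes and interactions were fitted with limma 3.58.1 in R 4.3.3, using its trend and robust options, on log2(CPM + 1): 12 libraries and 4 group means for the interaction, and 6 libraries of 1 table for the change in each line. Tests were two-sided. The added 1 CPM pulls folds of weakly expressed genes toward 0. Of 394 identifiers without a symbol, 134 were named from a reference table. At 1 CPM the libraries hold about 10 to 16 reads, which limits the precision for such genes.

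Replicates correlated at 0.9951 to 0.997, and chi-square per gene between them was 2.54 to 6.65, where counting alone gives about 1. The fit was also run on simulated data, with an interaction put into 200 genes and no treatment effect in the others. That setting is unlike these data, where many genes changed in both lines, so it is not used as support here. The gene members, the 33 lists and the rule for named genes were chosen with earlier results of these data known, so list counts are descriptions with no set test. Named genes were MYC and MAX, the 12 largest interactions on each side at a mean of at least 5 CPM in each line, up to 4 called members per list, and the leading genes of each opposite, close or larger-in-P493-6 pattern; other list members are given for balance and were chosen after their values were seen. The marker lists of T cells, myeloid cells and fibroblasts summed to at most 81.6 CPM in any library. Alternatives were other pseudocounts, a filter on low values, TMM scaling, limma without trend and robust settings, array weights, edgeR 4.0.16 and DESeq2 1.42.0 on whole reads, a stricter threshold, a replicate block, single libraries left out and, added after the data were seen, genes low in 1 line left out. A few named genes are not reported here.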

Additional observations from a re-analysis of the deposited data

Results flagged for a closer look

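The comparison is itself a test of a difference between lines, so every called interaction in the report meets the criterion of a response that differs between groups. Those of single genes that moved the same way in both lines, or in 1 line, are given there and not repeated. The counts behind it are 2029 genes higher and 2046 genes lower in PC3. A gap test for a single outlying library was not run, since it is not used on groups of 3.

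The genes below changed in PC3 and in P493-6 in opposite directions, and the difference between the lines was called by limma in each. Rising in PC3 and falling in P493-6, the interaction was 1.75 for KRT81, 1.40 for CDCP1, 1.27 for SAMD9L, 1.43 for FMO4, 1.46 for BIK and 1.33 for PLAU. It was 1.93 for ENSG00000278948, 1.10 for PDZD2, 1.75 for C4orf32 and 1.09 for LINC00936. KRT81, CDCP1 and PLAU stood below 5 CPM in P493-6 and were far higher in PC3. Falling in PC3 and rising in P493-6, the interaction was −1.51 for VWA1, −1.43 for ATF5, −1.15 for RCOR2, −1.20 for EGLN1 and −1.15 for ENSG00000279117. It was −1.17 for PAG1, −1.26 for ICK, −0.88 for NFIX, −0.84 for MT-CYB and −0.998 for PTPRS. Other genes of both patterns were weakly expressed too. SAMD9L, BIK, LINC00936 and RCOR2 stood below 5 CPM in every PC3 library, and PDZD2, VWA1 and ENSG00000278948 in every P493-6 library. FMO4 did so in every library of both lines. On those sides the changes rest on few reads. MYCi975 and DMSO libraries did not overlap in either line for any of the 20 genes except PLAU, which overlapped in P493-6. The 20 genes were picked because they were called in both lines with large changes. The lack of overlap therefore largely follows from that choice and adds no separate support.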

How the results depend on the processing

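Over the alternatives run other than the stricter threshold, 84.2% to 99.4% of the 4075 interaction calls were made again in the same direction, and 0 were made in the opposite one. Leaving out single libraries gave 1793 to 2059 genes higher and 1824 to 2053 lower in PC3. The counts of genes changed in both lines were 1840 to 2162 in the same and 253 to 337 in opposite directions, and those called were 7458 to 7697 in PC3 and 2976 to 3281 in P493-6. Counts in P493-6 moved most. Without trend and robust settings 1123 genes changed in the same and 135 in opposite directions, and 2055 were called in P493-6. With DESeq2 these were 1473, 177 and 2447. At a threshold of 0.01, 1430 interactions were called higher and 1467 lower, 149 genes changed in opposite directions and 2460 were called in P493-6. TMM scaling gave 1824 interactions higher and 2353 lower. The cause was not tested. The replicate numbers did not pair the libraries, with correlations of same-numbered deviations of −0.10 to 0.06, and with the replicate block 1919 genes were higher and 1909 lower. Of 159 named genes 148 had a called interaction, and 8 of these (ACACB, AMOTL2, CERK, ERAP1, MYCL, RPS3, RPSA and ZEB2) lost it in some alternative. The interaction of ST8SIA4 was 0.01 and came to −0.27 with 5 CPM added, and the median interaction of the immediate early genes came to −0.0327 without the genes low in 1 line. Without those, 2012 genes were higher and 2041 lower.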

Other observations

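Genes listed in the table of 1 line alone have no interaction. PC3 had 2511 such genes, of which 824 rose and 525 fell. GDF15, a secreted stress hormone, was at 162, 159 and 164 CPM in PC3 with MYCi975 and at 15.6, 13.5 and 14.3 CPM with DMSO. NUPR1, a stress-induced chromatin protein, was at 90.8, 81.8 and 77.3 CPM with MYCi975 and at 7.03, 9.67 and 7.13 CPM with DMSO. HKDC1, a hexokinase relative, TM4SF19 and RGS4 had the next largest rises, 2.78, 2.72 and 2.61 on the log2(CPM + 1) scale. PHACTR3 had the largest fall, −2.57, followed by those of PCDH18, the histone gene H2BC3 (uncertain, from a near-identical family), GPR110 and NEFL.

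P493-6 had 1758 genes of its own, of which 187 rose and 99 fell. INHBE, an inhibin subunit gene induced by stress, was at 13.4, 10.8 and 14.2 CPM with MYCi975 and at 1.74, 1.64 and 2.15 CPM with DMSO. SLC2A3, a glucose carrier and known hypoxia gene, rose by 0.95, and ALPK2 by 1.25. PPP1R3A, a glycogen-targeting phosphatase subunit, had the largest fall, −1.39, at 5.56, 6.22 and 4.19 CPM with MYCi975 and 15.1, 16 and 15.1 CPM with DMSO.

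Of the 3573 joined genes called in neither line, 110 had a called interaction. Of the 4240 genes called in PC3 and not in P493-6, 2312 had one, so for the other members of that set the tests did not show that the lines differed.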
